A study of Mus musculus with 8 samples.

Results

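The 10 genes described here, Espn, Fscn2, Xirp2, Myo15, Myo3a, Myo6, Eps8, Gpsm2, Ptprq and Clic5, encode proteins that build the actin core of the hair cell stereocilium or shape the hair bundle. They were chosen by gene symbol from 21895 genes in the deposited expression table, and all 10 had a row there. WT and KO values overlapped in all 10, and limma called 0 of the 9 genes tested at an unadjusted p-value under 0.05. Of all 14990 tested genes 5.12% were called, so 0 of 9 does not set the bundle genes apart. After adjustment 0 of all tested genes were called. Myo3a was too low for the main fit. Differences remain possible, as the limma interval of Xirp2 ran from 0.627 to 5.47 fold of KO over WT. The data come from cochlear RNA of 4 WT libraries (WT1 to WT4) and 4 miR-29a-/- libraries (KO1 to KO4). According to the methods of the study, the strain was on the C57BL/6 background, WT and KO pups came from heterozygous matings, and males and females were used. The age is 21 days in the series description and 2 months in the methods, for WT and KO alike. Each library holds RNA of the cochlea with all of its cell types, so that for a hair cell gene fewer hair cells and less RNA per hair cell cannot be told apart. The labels do not say that the libraries came from separate animals, and p-values measure only the spread between these libraries.

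Stereocilia are actin-filled projections on the apical surface of hair cells, arranged in rows of graded height. Cross-linking proteins bundle the parallel actin filaments, unconventional myosins carry cargo to the tips or hold the membrane at the base, and tip complexes set how tall each row becomes. Loss of function of most of these genes causes deafness in humans or mice. MiR-29a is a microRNA that lowers the expression of messages whose 3′-UTR pairs with its seed, bases 2 to 8, and it is best known for repressing genes of the extracellular matrix.

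The mature miR-29 sequences are shown because the KO removes miR-29a while miR-29b and miR-29c have the same seed, given here in capitals.
mmu-miR-29a-3p: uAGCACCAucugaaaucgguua
mmu-miR-29b-3p: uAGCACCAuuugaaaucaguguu
mmu-miR-29c-3p: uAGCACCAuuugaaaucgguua
On GRCm38 in RefSeq, miR-29a-3p lies at chr6:31062673-31062694 on the minus strand and miR-29c-3p at chr1:195037600-195037621 on the plus strand. MiR-29b-3p has a copy beside each of them, at chr6:31063025-31063047 and chr1:195037091-195037113. The match to the shared seed is TGGTGCT, searched on the strand of the message. Taking for each gene the longest 3′-UTR in the annotation, 0 of the 10 bundle genes held it, beside 2292 of 14824 tested genes with a 3′-UTR (15.5%). The 3′-UTRs of the bundle genes ranged from 59 bases in Fscn2 and 83 bases in Myo3a to 3858 bases in Myo6 and 4791 bases in Clic5, beside a median of 1181 bases over the tested genes. The absence of the match says only that these letters do not occur in these annotated UTRs. The level of miR-29a was not analysed here and the genotype labels have no such check.

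WT1 and WT3 stood apart from the other libraries and from each other. The correlation of log2 values within WT was 0.725 to 0.962, against 0.924 to 0.957 within KO. The summed FPKM (sequenced fragments relative to transcript length and to all mapped fragments) of 11 marrow genes ran from 176 in WT3 to 11242 in WT1 and from 3206 to 8680 in KO. That of 6 bone genes ran from 30.6 in WT3 to 357 in WT1, and from 192 to 362 in KO. In WT1 the 10 most abundant genes took 17.6% of all FPKM, against 8.50% to 10.9% elsewhere. All 16 hair cell markers were measured and none was at 0 in all libraries, so the tissue held hair cell RNA. The depth is unknown because only FPKM were used, and no counting error can be given.

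The 10 genes covered a wide range of levels. FPKM is scaled by transcript length, so mean levels over the 8 libraries can be set beside each other. Myo6 was the most abundant at 29.1 FPKM, followed by Ptprq at 12.6, Gpsm2 at 6.91, Eps8 at 6.87, Clic5 at 5.83 and Espn at 3.92. Myo15 at 1.66, Fscn2 at 1.52, Xirp2 at 1.13 and Myo3a at 0.318 were the lowest. Within the whole table Myo6 was at the 92.5th percentile of mean levels and Myo3a at the 29.4th. Every library placed Myo6 above Ptprq, Clic5 above Espn, and Espn above Myo15. Gpsm2 and Eps8 kept their order in 4 of 8 libraries, and Myo15 and Fscn2 in 5 of 8, so that neither pair can be ranked. For each pair of neighbours in this order, the ranges over the 8 libraries overlapped.

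**Figure D1:**
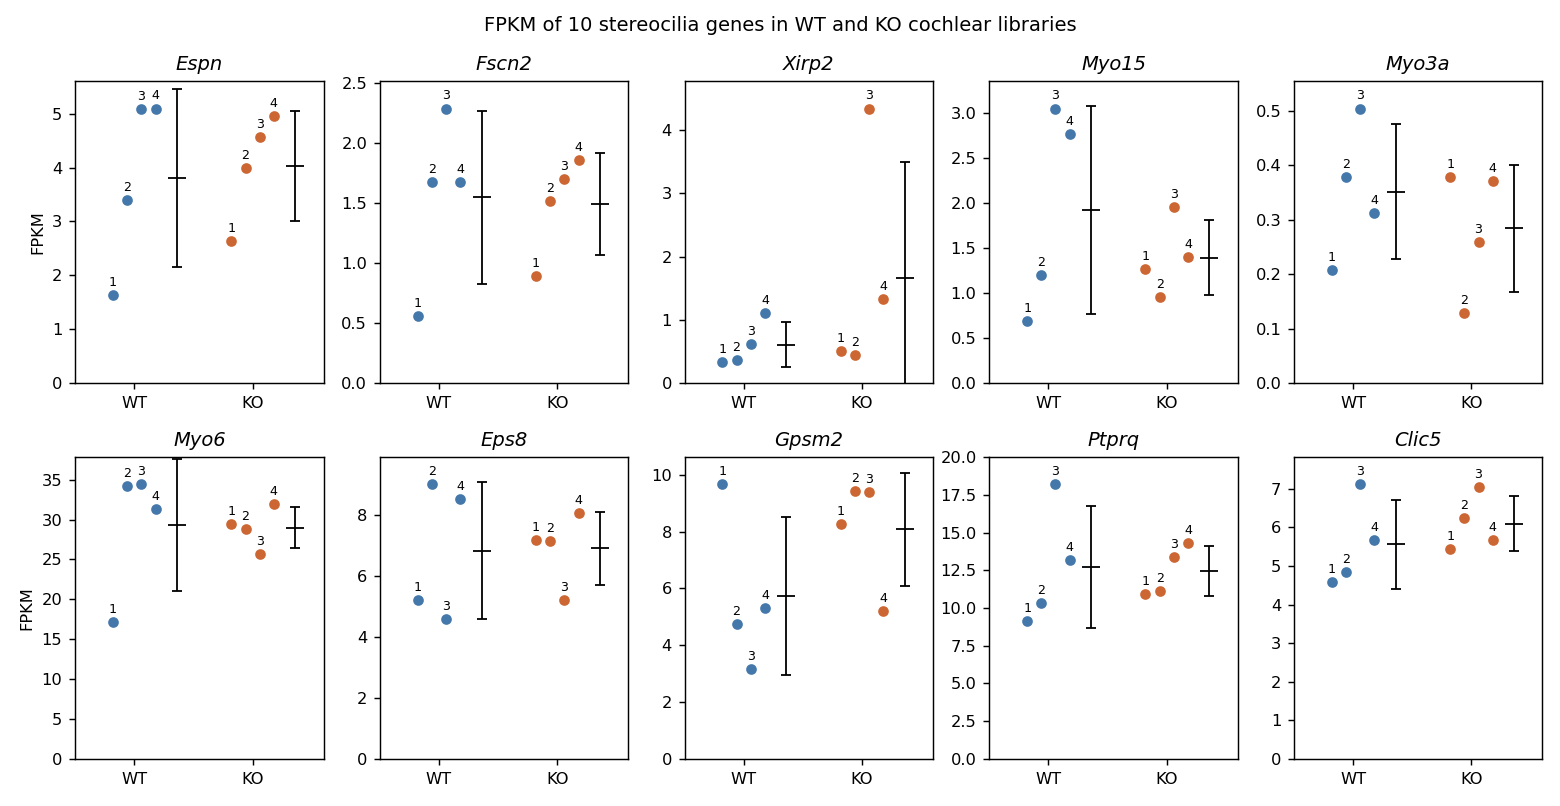
FPKM of each of the 10 stereocilia genes by library, each on its own linear axis from 0, with WT in blue and KO in orange. Numbers are replicate numbers, and the bar beside each group is the mean ± SD (n = 4; the lower bar of Xirp2 in KO passes below 0 and is cut at the axis). WT and KO overlap in all 10 genes, and WT1 is the lowest library in 7 of them.

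KO was compared with WT to ask whether bundle genes differ in cochleae without miR-29a. On log2(FPKM + 0.1), 9 of the 10 genes passed the filter of a mean of at least 0.5 FPKM, and Myo3a did not. Of the 9, 0 had an unadjusted limma p-value under 0.05, where 5.12% of the 14990 tested genes did (767 genes). Of all tested genes, 4.61% were called higher (691 genes) and 0.507% lower in KO (76 genes) at this threshold. At an adjusted p-value under 0.05, limma called 0 bundle genes and 0 of all tested genes (0%). The 4 WT and 4 KO values overlapped in all 10 bundle genes, against 3.5% of tested genes in which they did not. The median log2 fold change of KO over WT was 0.06 for the 9 bundle genes and 0.10 for all tested genes. It was above 0 for 8 of the 9 and for 9962 of the 14990, but under median-ratio scaling of the libraries for 4 of the 9, with the median of all tested genes at 0.004. Under quantile normalization it was also above 0 for 4 of the 9, with the median of all tested genes at -0.04. Fold changes on the log2(FPKM + 0.1) scale understate the change of low genes such as Myo3a.

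**Figure D2:**
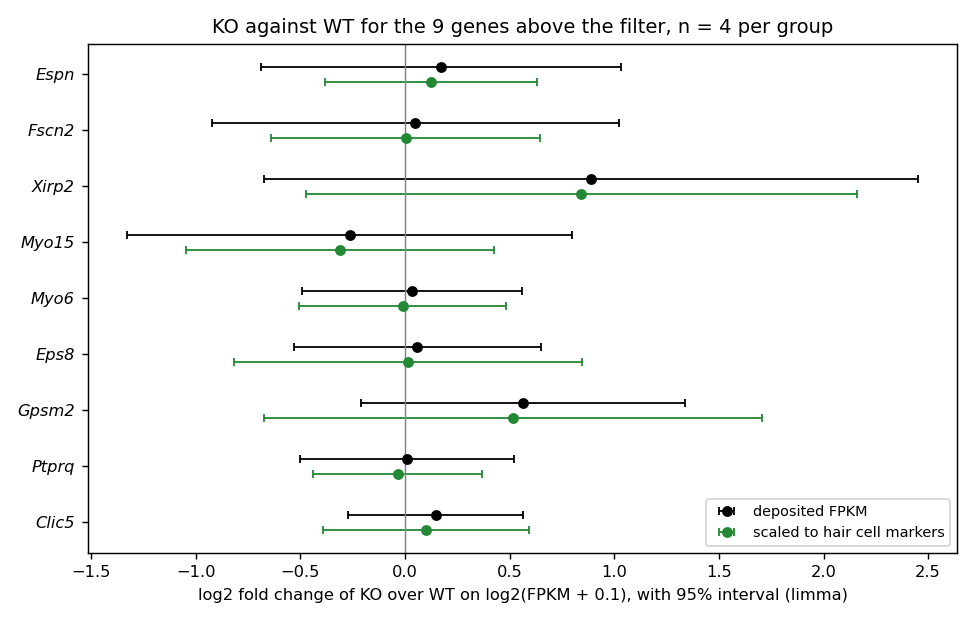
Log2 fold change of KO over WT, with limma's 95% interval, for the 9 stereocilia genes that passed the filter on low values (n = 4 per group). Black points are from the deposited FPKM and green points from FPKM scaled in each library to the mean of 16 hair cell markers. All intervals hold 0, and the intervals of Espn, Fscn2 and Myo15 are narrower after scaling while those of Eps8 and Gpsm2 are wider.

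Among the cross-linkers, Espn (ENSMUSG00000028943, chr4:152120331-152152371 on GRCm38, minus strand) encodes espin, which bundles actin and lengthens stereocilia. Espn was at 1.64, 3.39, 5.09 and 5.10 FPKM in WT1 to WT4 and at 2.63, 3.99, 4.57 and 4.96 FPKM in KO1 to KO4. WT averaged 3.80 ± 1.65 FPKM and KO averaged 4.04 ± 1.02 FPKM (SD, n = 4 each). WT1 and KO1 were the lowest of their groups, and the KO values lay within the WT range. With limma, the log2 fold change of KO over WT was 0.17 (SE 0.38, 95% interval -0.69 to 1.03, adjusted p = 0.983), and without WT1 it was -0.18.

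Fscn2 (ENSMUSG00000025380, chr11:120361534-120368168, plus strand) encodes fascin-2, a cross-linker of hair cell and photoreceptor actin. Its FPKM was 0.561, 1.68, 2.29 and 1.68 in WT1 to WT4 and 0.896, 1.52, 1.70 and 1.86 in KO1 to KO4. As for Espn, WT1 and KO1 were the lowest and KO lay within the range of WT. WT averaged 1.55 ± 0.721 FPKM and KO averaged 1.5 ± 0.422 FPKM (SD, n = 4 each). Its log2 fold change was 0.05 (SE 0.43, 95% interval -0.92 to 1.02, limma adjusted p = 0.992), of the other sign than the difference of the means, and it was -0.34 without WT1 and 0.27 without WT3.

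Xirp2 (ENSMUSG00000027022, chr2:67446002-67526614, plus strand) encodes an actin-binding repeat protein of striated muscle that hair cells also carry in their stereocilia. It was at 0.339, 0.365, 0.627 and 1.11 FPKM in WT1 to WT4 and at 0.503, 0.452, 4.34 and 1.32 FPKM in KO1 to KO4. KO3 was far above the other 7 libraries, and KO1 and KO2 lay within the WT range. WT averaged 0.610 ± 0.357 FPKM and KO averaged 1.66 ± 1.84 FPKM (SD, n = 4 each). Xirp2 had a log2 fold change of 0.89 (SE 0.69, 95% interval -0.67 to 2.45, limma adjusted p = 0.947), and it was 0.26 without KO3.

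Skeletal muscle genes were highest in the libraries with the most Xirp2. The sum of 13 of the 14 listed muscle genes ran from 3.63 to 17.3 FPKM in WT and was 8.51, 5.80, 385 and 49.6 FPKM in KO1 to KO4. Pvalb was left out of this sum after the values were seen, because neurons and hair cells also express it, and with it the sum was 52.3 to 205 FPKM in WT and 90.9 to 594 FPKM in KO. KO3, KO4 and WT4, in this order, were the highest 3 libraries for Xirp2 and for the sum without Pvalb. Below them the orders differed. WT3 had the lowest sum (3.63 FPKM) but more Xirp2 (0.627 FPKM) than KO1 (0.503 FPKM), where the sum was 8.51 FPKM. Acta1, the actin of skeletal muscle fibres, was at 0.15 to 2.18 FPKM in WT, at 142 FPKM in KO3, at 10.2 FPKM in KO4 and at 0.52 and 0.29 FPKM in KO1 and KO2. Ckm, the muscle creatine kinase, was at 29.0 FPKM in KO3 and Myh4, a fast myosin heavy chain, at 23.9 FPKM, against 0.88 and 0.69 FPKM in the highest WT library, WT4. No muscle gene was at 0 in all libraries, and all 13 that passed the filter had a log2 fold change above 0 with a median of 2.44. Limma gave 1 of them an unadjusted p-value under 0.05, higher in KO, as for 4.61% of all tested genes. The muscle count was 0 without WT2, WT3 or KO4. It was 3 without WT4 or KO1, where 634 of 14965 and 551 of 15000 tested genes were called higher. Without KO2 it was 9, where 323 of 14976 tested genes were called higher. Without KO3, 9 muscle genes passed the filter, of which 7 were above 0 with a median of 1.26. The part of muscle RNA in the Xirp2 difference was not tested. Of 11979 exonic bases of Xirp2, 168 are shared with Gm13601 on the other strand, and the sources used here do not state whether strand was used to obtain the FPKM.

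Of the motors, Myo15 (ENSMUSG00000042678, chr11:60469339-60528369, plus strand) encodes the myosin that carries tip proteins such as Eps8 along the stereocilium. Myo15 was at 0.695, 1.20, 3.05 and 2.77 FPKM in WT1 to WT4 and at 1.27, 0.960, 1.96 and 1.41 FPKM in KO1 to KO4. The 4 KO libraries lay between WT1 and WT4. WT averaged 1.93 ± 1.16 FPKM and KO averaged 1.40 ± 0.416 FPKM (SD, n = 4 each), the largest shortfall in KO among the 10 genes as a ratio of means (0.724). The difference of KO from WT was -0.26 on the log2 scale (SE 0.47, 95% interval -1.33 to 0.80, limma adjusted p = 0.983). Single libraries moved this value by over 1.5 times, to -0.64 without WT1, -0.41 without WT2, 0.02 without WT3, -0.03 without WT4, -0.11 without KO2 and -0.43 without KO3.

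Myo3a (ENSMUSG00000025716, chr2:22227503-22618252, plus strand) encodes a myosin with a kinase domain that moves espins to the tips. It was the least abundant of the 10 genes, at 0.208, 0.379, 0.505 and 0.313 FPKM in WT1 to WT4 and at 0.378, 0.129, 0.259 and 0.372 FPKM in KO1 to KO4. The lowest library was KO2 and the highest WT3, and the groups overlapped. WT averaged 0.351 ± 0.124 FPKM and KO averaged 0.285 ± 0.117 FPKM (SD, n = 4 each). In the limma fit without a filter its log2 fold change was -0.25 (SE 0.31, 95% interval -0.96 to 0.47, adjusted p = 0.951).

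Myo6 (ENSMUSG00000033577, chr9:80165031-80311729, plus strand) encodes a myosin that moves towards the pointed ends of actin filaments and anchors the membrane at the stereocilia base. It is expressed in many other cell types as well. Myo6 FPKM was 17.1, 34.3, 34.4 and 31.4 in WT1 to WT4 and 29.5, 28.8, 25.7 and 31.9 in KO1 to KO4. WT1 was below all 7 other libraries, whose values lay between 25.7 and 34.4 FPKM. WT averaged 29.3 ± 8.24 FPKM and KO averaged 29.0 ± 2.54 FPKM (SD, n = 4 each). Myo6 had a log2 fold change of 0.03 (SE 0.23, 95% interval -0.49 to 0.56, limma adjusted p = 0.991), and -0.20 without WT1.

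Among the genes that set the height of the bundle, Eps8 (ENSMUSG00000015766, chr6:137477245-137654876, minus strand) encodes an actin-capping and bundling protein that Myo15 delivers to the tallest row. It was at 5.21, 9.01, 4.59 and 8.51 FPKM in WT1 to WT4 and at 7.18, 7.15, 5.22 and 8.08 FPKM in KO1 to KO4. The KO values lay within the WT range, and its lowest library was WT3, where most of the other bundle genes were at their highest. WT averaged 6.83 ± 2.25 FPKM and KO averaged 6.91 ± 1.21 FPKM (SD, n = 4 each). For Eps8, limma gave a log2 fold change of 0.06 (SE 0.26, 95% interval -0.53 to 0.65, adjusted p = 0.989), with a range from -0.11 to 0.21 over fits that each lacked 1 library.

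Gpsm2 (ENSMUSG00000027883, chr3:108678638-108722309, minus strand) encodes LGN, which orients the mitotic spindle in dividing cells and, with Gnai3, marks the tips of the tallest stereocilia. Gpsm2 was at 9.67, 4.76, 3.18 and 5.32 FPKM in WT1 to WT4 and at 8.28, 9.42, 9.40 and 5.21 FPKM in KO1 to KO4. KO1, KO2 and KO3 were thus above WT2, WT3 and WT4, while WT1 was the highest of all 8 and KO4 lay below WT4. WT averaged 5.73 ± 2.78 FPKM and KO averaged 8.08 ± 1.98 FPKM (SD, n = 4 each). Gpsm2 had a log2 fold change of 0.56 (SE 0.34, 95% interval -0.21 to 1.34, limma adjusted p = 0.947), and its unadjusted p-value was the smallest of the 9 genes tested. Without WT1 the log2 fold change was 0.85 with an unadjusted limma p-value under 0.05 (adjusted p = 0.158), as for 1 of the 9 bundle genes and for 19.5% of all genes tested in that fit (12.1% higher and 7.4% lower in KO), of which 0% passed after adjustment. Without WT3 it was 0.32.

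Genes of dividing cells, marrow and bone moved with Gpsm2. All 8 listed proliferation genes were measured, none was at 0 in all libraries, and their sum was 245.3, 49.3, 3.0 and 55.1 FPKM in WT1 to WT4 and 187, 161, 163 and 74.8 FPKM in KO1 to KO4. The 4 libraries in which Gpsm2 was above 8 FPKM, WT1, KO1, KO2 and KO3, were the 4 in which this sum was above 160 FPKM. WT3 was the lowest library for both. All 8 proliferation genes had a log2 fold change above 0, with a median of 1.75. Limma gave 0 of them a p-value under 0.05, unadjusted (5.12% of all tested genes) or adjusted (0%). Without WT1, the library with the highest proliferation sum, 8 of the 8 were higher in KO at an unadjusted limma p-value under 0.05. Of all genes tested in that fit 12.1% were, and the median of the 8 was 2.57. Without WT3 0 of the 8 were, with a median of 0.70. The marrow and bone sums were also highest in WT1, KO1, KO2 and KO3, at 4830 to 11242 and at 283 to 362 FPKM, and lowest in WT3. The part of dividing, marrow and bone cells in the Gpsm2 difference was not tested. Of 3909 exonic bases of Gpsm2, 203 are shared with Clcc1 on the other strand.

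**Figure D3:**
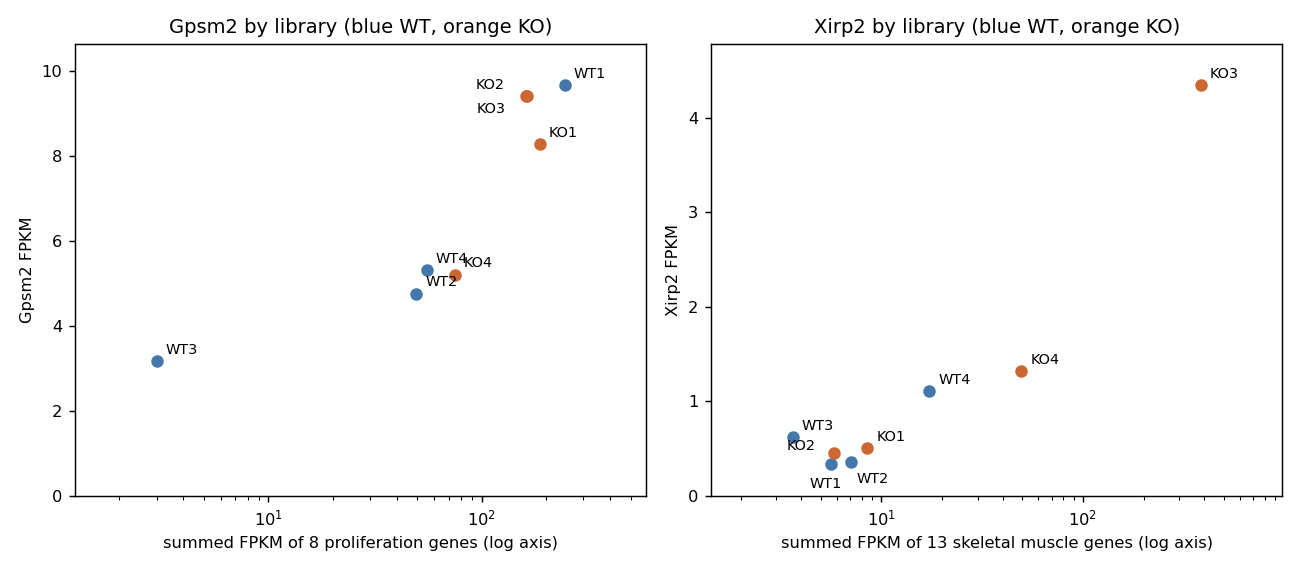
Left, Gpsm2 FPKM in each library against the summed FPKM of 8 proliferation genes; right, Xirp2 FPKM against the summed FPKM of 13 skeletal muscle genes without Pvalb. The horizontal axes are logarithmic and the vertical axes linear from 0, with WT in blue and KO in orange. Gpsm2 is above 8 FPKM in the 4 libraries with a proliferation sum above 160 FPKM, WT1 among them, and Xirp2 is highest in KO3, where the muscle sum is 385 FPKM.

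At the shaft and base of the stereocilium, Ptprq (ENSMUSG00000035916, chr10:107517049-107720051, minus strand) encodes a receptor-type phosphatase of the shaft connectors, and Clic5 (ENSMUSG00000023959, chr17:44188584-44280172, plus strand) encodes a protein of the taper region that links membrane and actin. Ptprq was at 9.13, 10.3, 18.2 and 13.2 FPKM in WT1 to WT4 and at 10.9, 11.2, 13.4 and 14.3 FPKM in KO1 to KO4. Clic5 was at 4.59, 4.84, 7.12 and 5.68 FPKM in WT1 to WT4 and at 5.43, 6.24, 7.05 and 5.68 FPKM in KO1 to KO4. For both genes WT1 was the lowest and WT3 the highest library, with the KO libraries in between. Ptprq averaged 12.7 ± 4.04 FPKM in WT and 12.4 ± 1.66 FPKM in KO (SD, n = 4 each), with a log2 fold change of 0.01 (SE 0.22, limma adjusted p = 0.999). Clic5 averaged 5.56 ± 1.14 FPKM in WT and 6.10 ± 0.716 FPKM in KO (SD, n = 4 each), with a log2 fold change of 0.15 (SE 0.18, limma adjusted p = 0.973). These 2 genes had the smallest SE of the 9 tested. Their 95% intervals allow a fold of KO over WT from 0.707 to 1.44 for Ptprq and from 0.83 to 1.48 for Clic5. Differences within these limits remain possible, and the smallest change that could be detected was not computed.

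WT1 and WT3 marked the ends of the range for most of the bundle genes. In 7 of the 10 the lowest library was WT1, as in 52.1% of all tested genes, and in 6 of the 10 the highest was WT3, as in 19.0% of all tested genes. The exceptions at the low end were Eps8 and Gpsm2, lowest in WT3, and Myo3a, lowest in KO2. At the high end they were Espn in WT4, Eps8 in WT2, Gpsm2 in WT1 and Xirp2 in KO3. The SD of FPKM was larger in WT than in KO for all of the 10 genes but Xirp2, and the lowest or the highest library lay in WT for each of the 10. The share of all tested genes with either pattern was not computed. Over all tested genes the lowest library was WT1 in 52.1% and WT3 in 19.7%, so neither count is read as particular to the bundle genes.

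**Figure D4:**
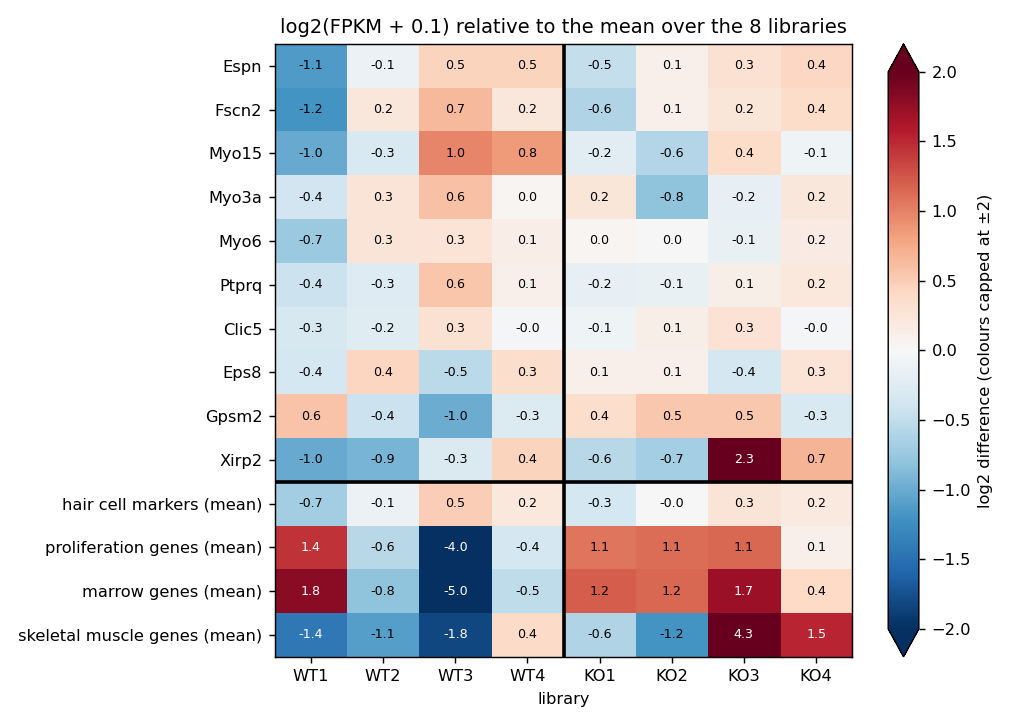
Log2(FPKM + 0.1) of the 10 stereocilia genes in each library, relative to the mean of the gene over the 8 libraries, above the same for the means of 4 marker lists. Colours run from blue (lower) to red (higher) and are capped at 2 in each direction, and the black vertical line divides WT from KO. WT1 is low and WT3 high in most bundle genes and in the hair cell markers, whereas Gpsm2 is high in WT1 and low in WT3, as are the proliferation and marrow genes.

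Hair cell markers other than the 10 genes were also mostly at their lowest in WT1 and their highest in WT3. Their summed level was 45.7, 61.4, 85.0 and 69.8 FPKM in WT1 to WT4 and 48.2, 60.7, 72.3 and 67.6 FPKM in KO1 to KO4. Of the 16 markers, 12 were lowest in WT1 and 11 highest in WT3. None had an unadjusted limma p-value under 0.05, where 5.12% of all tested genes did. Their median log2 fold change was 0.02, beside 0.10 for all tested genes. The log2 fold change was -0.24 for Myo7a, a hair cell myosin, -0.23 for Otof, the calcium sensor of the inner hair cell synapse, and -0.11 for Slc26a5, the motor protein of outer hair cells. It was 0.02 for Slc17a8, the vesicular glutamate transporter of inner hair cells, and 0.33 for Pou4f3, a hair cell transcription factor, but below 0 for Slc17a8 under median-ratio scaling and quantile normalization. Low values in WT1 and high values in WT3 were not particular to hair cell genes. The sum of 10 supporting cell genes was lowest in WT1 (155 FPKM) and highest in WT3 (365 FPKM). That of 7 spiral ganglion genes was also lowest in WT1 (355 FPKM) and highest in WT3 (1028 FPKM). The part of hair cell RNA in the spread of the bundle genes was looked at only by the scaling described next. No scaling to supporting cell or spiral ganglion genes was run.

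When each library was scaled to the mean log2 level of the 16 hair cell markers, the spread of some bundle genes became smaller. The SD of log2 values over the 8 libraries went from 0.56 to 0.22 for Espn, from 0.60 to 0.27 for Fscn2, from 0.69 to 0.42 for Myo15 and from 0.31 to 0.16 for Ptprq. It went from 0.33 to 0.27 for Myo6 and from 1.12 to 0.96 for Xirp2. The scaling thus made the spread between libraries smaller for each of these 6 genes. For Clic5 the SD was 0.23 before and after and for Myo3a 0.44 and 0.46, and it went up from 0.36 to 0.54 for Eps8 and from 0.58 to 0.87 for Gpsm2. The limma SE of the genotype difference was lower after this scaling for 6 of the 9 bundle genes tested and for 35.9% of all tested genes. Median-ratio scaling, which is not based on hair cell markers, also lowered the SE of most of these genes. With it the SE went from 0.38 to 0.30 for Espn, from 0.43 to 0.35 for Fscn2 and from 0.47 to 0.41 for Myo15. It went from 0.23 to 0.16 for Myo6 and from 0.22 to 0.19 for Ptprq, but up from 0.34 to 0.40 for Gpsm2. A lower SE was thus not particular to the hair cell marker scaling. The log2 fold changes after hair cell marker scaling were 0.13 for Espn, 0.003 for Fscn2, -0.31 for Myo15, -0.03 for Ptprq and 0.52 for Gpsm2. After hair cell marker scaling, 0 of the 9 genes had an unadjusted limma p-value under 0.05, where 2.3% of tested genes did. Limma called 0 of them, and 0% of tested genes, after adjustment.

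Between the 10 genes, likeness of the profiles over the 8 libraries was measured as the root mean square difference of log2(FPKM + 0.1) after each gene had been centred on its mean. Of the 45 pairs, the cross-linkers Espn and Fscn2 were the most alike (0.17), closely followed by Ptprq and Clic5 (0.18) and by Myo6 and Ptprq (0.27). The first 2 pairs are not ranked reliably. Ptprq and Clic5 came first under median-ratio scaling, under quantile normalization and without WT3, KO2, KO3 or KO4, and Espn and Fscn2 had rank 3 without WT3 or KO2. The least alike were Xirp2 and Eps8 (1.16). Clic5 (0.19) and Ptprq (0.20) were the closest to the mean profile of the 9 genes that passed the filter, and Gpsm2 (0.71) and Xirp2 (0.83) the farthest. The median distance to this profile over 14981 tested genes was 0.36, and Myo15, Myo3a and Eps8 (0.44 each) as well as Gpsm2 and Xirp2 lay farther from it than that. Genes outside the bundle came closer than any of the 10. The 10 nearest were Stk11 (0.05), Gpaa1 (0.07), Mrpl58 (0.08), Mpc2 (0.09), Pkp2 (0.09), Pycrl (0.10), Psma1 (0.10), Nelfb (0.10), Actn2 (0.10) and Wdtc1 (0.10). All genes share the same 8 libraries, and nothing particular to the bundle genes is read from this likeness.

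Other genes of the bundle, the cuticular plate and the rootlets were described from a list of 51, all of which passed the filter. Myo7a is in this list and among the hair cell markers. Of the 51, 3 were higher in KO at an unadjusted limma p-value under 0.05 and 0 were lower, against 4.61% and 0.507% of all tested genes, and 0 had an adjusted p-value under 0.05. The median log2 fold change was 0.12 and 36 of the 51 were above 0, beside a median of 0.10 for all tested genes. Myo1c, a myosin of the adaptation motor and of many other cells, was at 20.2 ± 0.887 FPKM in WT and 25.9 ± 2.49 FPKM in KO (SD, n = 4 each), with a log2 fold change of 0.36 (SE 0.12, limma adjusted p = 0.947). Lmo7, a protein of the cuticular plate, was at 21.9 ± 3.43 FPKM in WT and 28.1 ± 2.11 FPKM in KO, with a log2 fold change of 0.37 (SE 0.15, limma adjusted p = 0.947). Gnai3, the G protein that acts with Gpsm2, was at 22.1 ± 2.09 FPKM in WT and 27.9 ± 3.09 FPKM in KO, with a log2 fold change of 0.33 (SE 0.13, limma adjusted p = 0.947). None of these 3 genes is particular to hair cells. Under median-ratio scaling their log2 fold changes were 0.26, 0.27 and 0.23, and 0 of the 3 had an unadjusted limma p-value under 0.05, as with replicates 1 to 3 only. Leaving out 1 library ended the call of Lmo7 without WT3 (log2 fold change 0.26), KO1 (0.38), KO2 (0.33) or KO4 (0.35). It ended that of Gnai3 without WT1 (0.27), WT2 (0.34), WT4 (0.34), KO2 (0.29), KO3 (0.29) or KO4 (0.35), and that of Myo1c in no case.

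In 3 of the 51 genes the 4 KO values were all above the 4 WT values, where 3.02% of all tested genes had this pattern. They were Myo1c, Lmo7 and Triobp, the actin bundler of the stereocilia rootlets. Triobp was at 12.3 to 14.1 FPKM in WT and at 14.3 to 17.2 FPKM in KO, with a log2 fold change of 0.24 (limma adjusted p = 0.947). Among the largest log2 fold changes upwards were those of Lcp1, the plastin of white blood cells (0.97), and Diaph3, a formin (0.89), each with a limma adjusted p-value of 0.947. Lcp1 was at 160.9 FPKM in WT1, the library with the highest marrow sum, and at 13.4 FPKM in WT3, the library with the lowest. The part of marrow RNA in these differences was not tested. Without WT1 both Lcp1 and Diaph3 had an unadjusted limma p-value under 0.05, with log2 fold changes of 1.73 and 1.26. Of all genes tested in that fit, 12.1% were higher in KO at this threshold. The 3 largest downwards were those of Pdzd7, a protein of the ankle links (-0.60), Baiap2l2, a tip protein of the shorter rows (-0.31), and Elmod3 (-0.27), with limma adjusted p-values of 0.947 to 0.973. Pdzd7 was at 0.669, 2.34, 2.84 and 2.74 FPKM in WT1 to WT4 and at 1.31, 1.34, 0.938 and 1.29 FPKM in KO1 to KO4. WT1 was thus below all of KO while the other 3 WT libraries were above it. Without WT1 the limma log2 fold change of Pdzd7 was -1.06, with an unadjusted p-value under 0.05 and lower in KO, like 7.4% of all genes tested in that fit, and Elmod3 (-0.38) did so too.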

How the data were processed

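Cochlear RNA was sequenced from 4 WT and 4 KO libraries, grouped by the genotype in the sample labels. Per the labels and methods, the authors removed ribosomal RNA, made strand-specific libraries, mapped paired-end reads with Hisat2 (v2.0.4) and deposited FPKM per gene. The build in the submitters' processing notes is mm9, but the loci of all 10 genes equal those of GENCODE mouse release 21 on GRCm38. The tool and annotation behind the FPKM are not given in the sources used here.

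Log2(FPKM + 0.1) was fitted for all genes with a mean of at least 0.5 FPKM over the 8 libraries (14990 of 21895) with limma 3.58.1 in R 4.3.3, with genotype as the only factor, moderated variances with a mean-variance trend, and Benjamini-Hochberg adjustment over all tested genes. Tests were two-sided. The 10 genes and all gene lists were chosen with earlier results of these data known. The other bundle genes named are those with an unadjusted p-value under 0.05 or groups that do not overlap and the 3 largest changes per direction. A result that this rule also covers is not reported here. Of the hair cell markers 5 and of the muscle genes 3 were fixed by name. Among supporting cell genes, 1 of 10 was lower in KO at an unadjusted limma p-value under 0.05 (0.507% of all tested genes). Of the 7 endothelial and the 7 spiral ganglion genes, 0 were called at this threshold (5.12% of all tested genes). Among bone genes 1 of 6 and among marrow genes 3 of 11 were higher (4.61% of all tested genes), and none had an adjusted p-value under 0.05. Without WT1 these counts were 3 of 10 lower among supporting cell genes (7.4% of all tested genes), and 4 of 6 and 11 of 11 higher among bone and marrow genes (12.1% of all tested genes). In that fit 1 endothelial gene was higher and 1 spiral ganglion gene lower. The bone count was 0 without WT2, KO1, KO2 or KO3, where 542 of 14996, 551 of 15000, 323 of 14976 and 292 of 14981 tested genes were higher. Without KO4 it was 2 and the supporting cell count was 2, where 775 of 14996 tested genes were higher and 95 lower. The marrow gene Ahsp was not analysed here.

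Tested on simulated data for this comparison (14990 genes), the fit found 140 of 200 genes simulated with a log2 fold change of 2 (adjusted p-value under 0.05). It gave 5.21% of the genes left unchanged an unadjusted p-value below that threshold. The noise was drawn for each gene separately with the same spread in WT and KO, and the changed genes had a mean log2 value above 0. Shifts shared by many genes, as in WT1 and WT3, were not simulated, so these rates check the fit and not its power in these libraries. As alternatives, the fit was repeated with a pseudocount of 1, without the filter, with a minimum of 1 FPKM, with median-ratio, quantile and hair cell marker scaling, without the trend, with a replicate block, on replicates 1 to 3, and without each library. Leaving out WT1 with WT3, and Gfi1 from the hair cell scaling, was added after the data were seen. The 3′-UTRs were the longest of protein-coding transcripts in GENCODE mouse release 21, and the miRNA sequences are RefSeq's on GRCm38.p6.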

Additional observations from a re-analysis of the deposited data

Results flagged for a closer look

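In 5 of the 48 groups of 4 libraries examined, 1 library lay far from the other 3 relative to the range of the group (a gap above Dixon's 95% critical value). Chance alone marks about 1 group in 20. None of the 10 bundle genes was among them. Pdzd7 was at 0.938 FPKM in KO3, with the next value in KO at 1.29 FPKM. Baiap2l2 was at 0.283 FPKM in WT1, with the next value in WT at 0.652 FPKM. Elmod3 was at 7.98 FPKM in KO4, and the next value in KO was 6.35 FPKM. Lcp1 was at 160.9 FPKM in WT1, and the next value in WT was 29.8 FPKM. Among the hair cell markers, Pou4f3 was at 1.64 FPKM in KO1, below the next value in KO of 3.07 FPKM.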

How the results depend on the processing

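The count of bundle genes with an unadjusted limma p-value under 0.05 was 0, and 0 to 1 when each library was left out, the 1 being Gpsm2 without WT1. It was 1 (Gpsm2, log2 fold change 0.63) without WT1 and WT3 together. For the 51 other bundle genes the count was 3, all higher in KO. It became 1, lower in KO, under median-ratio scaling and 5 (2 higher and 3 lower) under quantile normalization. It was 1 (higher) under hair cell marker scaling, 0 with replicates 1 to 3 only, and 11 (6 higher and 5 lower) without WT1 and WT3. When each library was left out it ran from 1 (higher, without KO2 or KO4) to 13 (10 higher and 3 lower, without WT1). For the hair cell markers 0 became 1 under quantile normalization (Myo7a, lower in KO) and 1 (lower in KO) without WT1 and WT3. It was 0 to 1 when each library was left out, with 1 higher in KO without WT1 and 1 higher without KO1. Over all genes 767 became 345 under hair cell marker scaling, 2430 without WT1 and WT3, and 347 (without KO3) to 2922 (without WT1) when each library was left out, with 377 without KO2. The split of 691 higher and 76 lower became 402 and 363 under median-ratio scaling, 378 and 547 under quantile normalization, 259 and 86 under hair cell marker scaling, and 1810 and 1112 without WT1. The cause was not tested.

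Signs turned for genes near 0. Under median-ratio scaling, the log2 fold change was -0.039 for Fscn2, -0.065 for Myo6, -0.040 for Eps8, -0.088 for Ptprq and -0.077 for Slc17a8. Under quantile normalization it was -0.20 for Fscn2, -0.068 for Myo6, -0.084 for Eps8, -0.085 for Ptprq and -0.21 for Slc17a8. Under hair cell marker scaling it was -0.011 for Myo6, -0.034 for Ptprq and -0.030 for Slc17a8, and without Gfi1 in that scaling -0.0069 for Ptprq. Without WT1 and WT3 it was -0.081 for Espn, -0.20 for Fscn2, -0.18 for Myo6, -0.36 for Eps8 and -0.14 for Slc17a8. It was -0.024 for Ptprq with replicates 1 to 3 only and -0.011 for Slc17a8 with a pseudocount of 1. When each library was left out it ran from -0.18 to 0.36 for Espn, -0.34 to 0.27 for Fscn2, -0.64 to 0.019 for Myo15, -0.20 to 0.13 for Myo6, -0.11 to 0.21 for Eps8, -0.13 to 0.20 for Ptprq, -0.28 to 0.21 for Slc17a8, -0.33 to 0.15 for Slc26a5 and -0.015 to 0.63 for Pou4f3. Xirp2, Gpsm2 and Clic5 kept a log2 fold change above 0 in all 19 alternatives.

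WT and KO libraries share only replicate numbers. Centred on its group mean, the WT library of a number correlated with the KO library of that number at 0.419, -0.24, -0.17 and 0.21 for numbers 1 to 4, so the numbers were not taken as pairs. A block for the replicate number gave counts of 0 bundle genes, 4 other bundle genes and 0 hair cell markers, and 838 of all genes. No call at an adjusted p-value was made for a bundle gene under any alternative.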
